A study of Saccharomyces cerevisiae with 4 samples.

Results

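Transcript levels of ribosome biogenesis genes were examined in budding yeast with wild-type HSF1 and in yeast carrying the allele hsf1-R206S/F256S, all held at 39 °C for 15 min. Membership was decided by gene symbol: 45 symbols of pre-rRNA processing factors, subunit assembly factors and RNA polymerase I subunits were listed. The list was drawn up with earlier results of these data known. A spot belonged to the set where the array annotation gave it a listed symbol. 43 of the 45 had such a spot, 1 each, out of 6051 genes and unnamed spots on the arrays. RRP9 and RRP15 had no spot of their name and were not analysed here. Each strain had 2 arrays, hybridised with 33P-labelled cDNA that had been copied from total RNA with an oligo(dT) primer. HSF1 encodes the heat shock transcription factor, and the allele changes 2 of its amino acids. The labels name no strain background, plasmid, promoter or further allele, and no unheated cells were analysed here, so each difference is between strains at 1 temperature and says nothing of a response to heat. Nothing in the labels says that the replicates were separate cultures, so p-values measure the spread between these arrays, which may be technical.

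Ribosome biogenesis begins in the nucleolus, where RNA polymerase I transcribes a long precursor of the rRNAs. Small nucleolar ribonucleoproteins, or snoRNPs, modify that precursor, while the small-subunit processome and a series of large-subunit assembly factors fold it, cut it and load it with ribosomal proteins. In yeast the genes for these proteins form a large co-regulated group that is transcribed strongly in growing cells and is known to be turned down for a time after heat shock and other stresses. Hsf1 is known mainly as the activator of chaperone genes, and ribosome biogenesis genes are not among its textbook targets.

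The values are spot intensities in arbitrary units, quantile-normalized so that the 4 arrays share 1 distribution, with values below 0 set to 0. A spot counted as above background on an array where its deposited value exceeded 3 noise SDs, the SD being estimated from that array's negative values. In normalized units this limit was 11.4 for wild-type replicate 1, 20.8 for wild-type replicate 2, 5.32 for mutant replicate 1 and 11.0 for mutant replicate 2, so a spot needed less signal to count on the first mutant array. The share of all genes above background was 40.7% and 24.95% in the wild type, and 61.3% and 41.6% in the mutant; its part in the results below was not tested. The spot of HSF1 itself read 37.1 and 0 in the wild type and 625 and 540 in the mutant, and it lay above background on 1 of the 2 wild-type arrays and on both mutant arrays. These arrays measure RNA from whole cultures, so fewer expressing cells and less RNA per cell cannot be told apart.

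Few ribosome biogenesis transcripts were readable in the wild type, and about as many as of all genes in the mutant. Of the 43 members, 3 and 4 were above background in the wild type (replicates 1 and 2, in that order here and below), against 28 and 15 in the mutant. As shares these are 6.98%, 9.3%, 65.1% and 34.9%, so the members lay below the share of all genes on both wild-type arrays and near it on the mutant arrays, above on replicate 1 and below on replicate 2. 13 members were above background on both mutant arrays and on no wild-type array, a pattern that 6.89% of all genes showed. They include IMP3 and NOP15, whose readings overlapped between strains. NOG2 was the 1 member with the opposite pattern, which 0.397% of all genes showed. 2 members, NSR1 and DBP2, lay above background on all 4 arrays, where 20.4% of all genes did, and 13 (30.2%) lay above it on none, where 33.1% did. The contrast was smaller with equal limits. With 1 common limit of 20.8, added after the data were seen, members above it numbered 2 and 4 in the wild type and 8 and 4 in the mutant. That is 4.65% to 18.6% of the members, below the 24.8% to 24.9% of all genes on every array. The 13 members became 2, NOP56 and UTP4, against 2.02% of all genes.

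**Figure D1:**
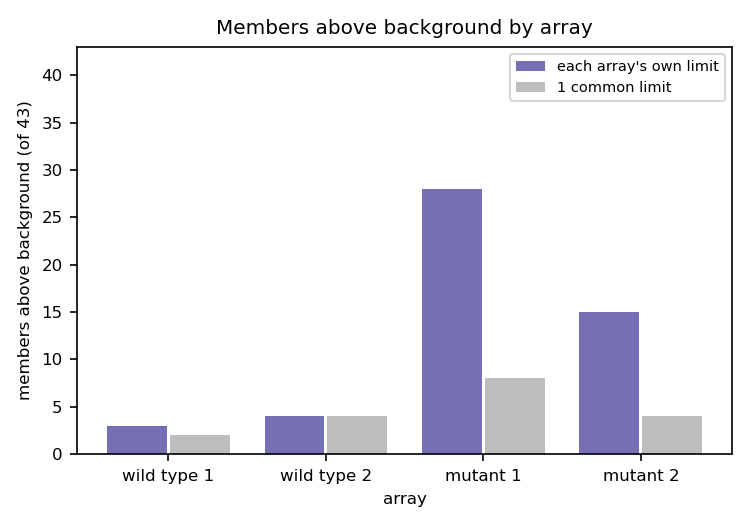
Number of the 43 ribosome biogenesis genes above background on each array (y axis, count), with each array's own limit of 3 noise SDs (purple) and with 1 common limit, the highest of the 4 (grey). With their own limits the arrays gave 3, 4, 28 and 15 members; with the common limit they gave 2, 4, 8 and 4.

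A member's rank within its own array does not depend on the background limit or on quantile or median scaling between arrays. The median member stood at percentile 23.7 of all genes on wild-type replicate 1 and 31.7 on wild-type replicate 2. It stood at 55.0 on mutant replicate 1 and 40.4 on mutant replicate 2, so both mutant medians were above both wild-type medians. Members in the upper part of the ranking, above percentile 50, numbered 10 and 13 in the wild type and 23 and 18 in the mutant. Deposited values at or below 0 were found for 18 and 16 of the 43 members in the wild type, and for 1 and 10 in the mutant. Those counts are 41.9%, 37.2%, 2.33% and 23.3% of the members, where all spots gave 17.1%, 23.9%, 7.12% and 14.4%. In units of each array's noise SD the median member lay at 0.405 and 0.351 in the wild type and at 5.0 and 1.53 in the mutant, beside 2.10, 1.14, 4.26 and 2.19 for the median of all genes.

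**Figure D2:**
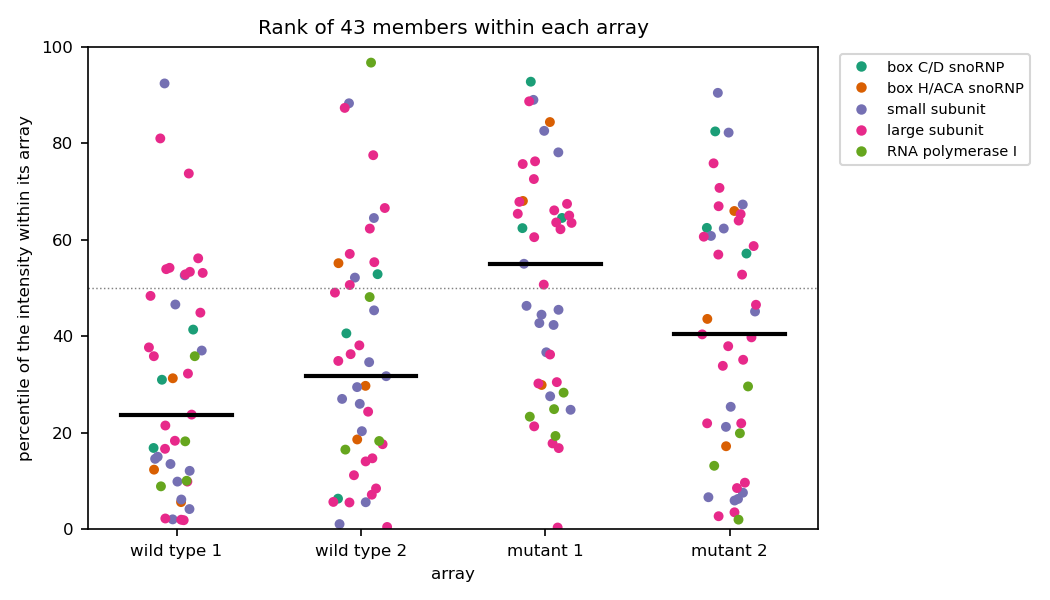
Percentile of each ribosome biogenesis gene's intensity among all genes of the same array (y axis), with 1 point per gene coloured by role and a black bar at the median of the 43 genes and a dotted line at percentile 50; the points are spread sideways for legibility. The medians are 23.7 and 31.7 in the wild type and 55.0 and 40.4 in the mutant, with wide overlap between all 4.

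Differences were taken as mutant minus wild type on the scale log2(normalized intensity + 1.06). The offset narrows ratios between positive readings, while a difference from a reading set to 0 depends on the offset itself. 32 of the 43 members averaged higher in the mutant, beside 50.6% of all genes, and the median difference was 0.93, beside 0.01 over all genes. A fold rule with no p-value asked for at least a 2-fold difference on this scale with no overlap between the strains' arrays. 12 members, 27.9%, met it upward, where 13.5% of all genes did, and 2 members, 4.65%, met it downward, where 12.8% of all genes did. Without the fold requirement, 15 members did not overlap upward and 2 downward, against backgrounds of 21.2% and 19.3%. In limma with Benjamini-Hochberg adjustment over all genes, 0 members and 0% of all genes were past 0.05, and the lowest adjusted p of a member was 0.277. At an unadjusted p of 0.05 there were 7 members higher and 0 lower, against 5.7% and 6.03% of all genes. An exact permutation test of a single gene cannot go below 0.333 with 2 arrays against 2.

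The shift was larger on 1 mutant array than on the other. Mutant replicate 1 exceeded wild-type replicates 1 and 2 by a median of 1.31 and 1.08 over the members, with 34 of 43 higher each time. Mutant replicate 2 exceeded them by 0.14 and 0.14, with 22 and 23 of 43 higher. The mutant arrays differed from each other by a median of -0.76 over the members, replicate 2 minus replicate 1, and the wild-type arrays by 0.10. With mutant replicate 1 left out the median difference between strains was 0.40, and with mutant replicate 2 left out it was 1.46. Leaving out a wild-type array gave 0.51 (replicate 1) or 0.78 (replicate 2). With 1 array left out the fold rule set 2 arrays against 1. It was then easier to meet in both directions over all genes, so those counts are not compared here with the counts from 4 arrays. With the values as deposited, which put the median of all genes 0.63 higher in the mutant, 19 members passed the fold rule as higher and 1 as lower, where 28.1% and 5.59% of all genes did.

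**Figure D3:**
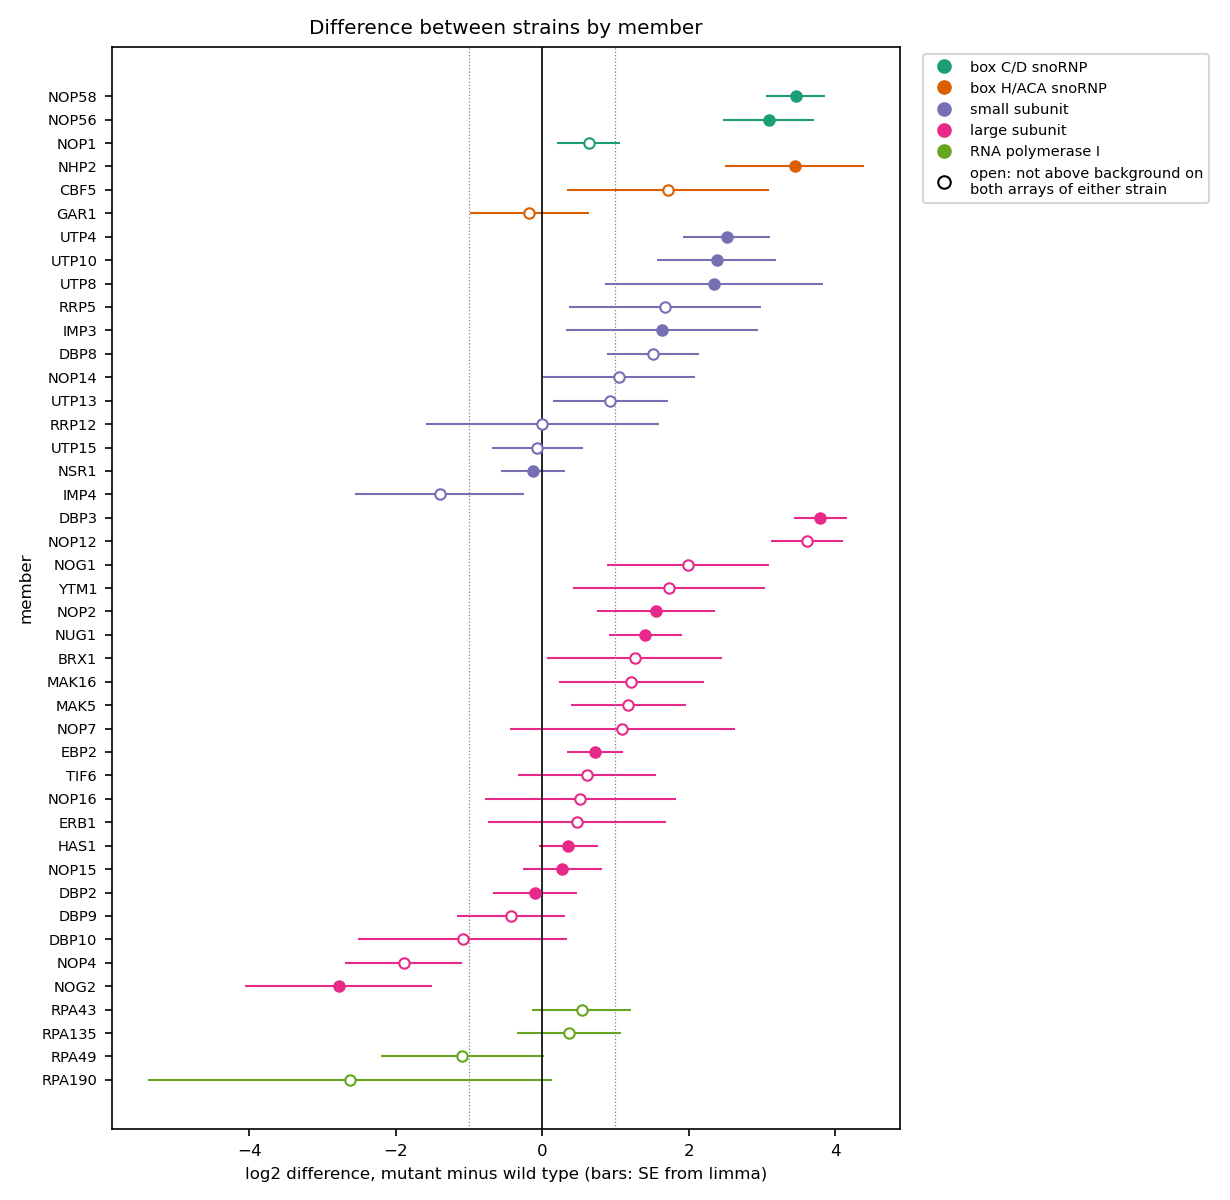
Log2 difference of each ribosome biogenesis gene, mutant minus wild type (x axis; points are fitted differences, bars are standard errors from limma, n = 2 arrays per strain), ordered within roles. 32 of 43 points lie to the right of 0, and filled points mark the 16 genes above background on 2 of 2 arrays in either strain; dotted lines mark a 2-fold difference.

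The core proteins of the box C/D snoRNPs, which guide 2′-O-methylation of rRNA, were all higher in the mutant, with no overlap between strains for any of the 3. NOP56 (YLR197W), a scaffold protein of these particles, read 3.49 and 5.76 in the wild type and 71.7 and 29.97 in the mutant. Its percentile went from 31.0 and 40.6 to 92.8 and 82.5, and since no wild-type array lay above background it was at least 2.88-fold higher (log2 difference 3.09, SE 0.63, limma adjusted p = 0.305). Here and below, "at least" sets the mutant mean against the dim wild type, each wild-type array taken at its limit or at the gene's reading, whichever is higher. It takes no account of the spread between replicates. A mutant array can lie under the limit of 20.8 of wild-type replicate 2, as mutant replicate 2 did for NHP2, UTP8 and NUG1. NOP58 (YOR310C), the paralogous scaffold, read 0.414 and 0 in the wild type and 12.7 and 12.7 in the mutant. The replicates of NOP58 lay close together, yet its mutant level was under the wild-type bound, so no fold is given. Its fitted log2 difference of 3.46 (SE 0.40, limma adjusted p = 0.277) depends on the offset, as for every gene below with no array of a strain above background. NOP1 (YDL014W), the fibrillarin methyltransferase, named after its values were seen, read 5.95 and 9.03 against 13.7 and 10.5. The fitted log2 difference of NOP1 was 0.63 with an SE of 0.43, and it did not meet the fold rule.

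The box H/ACA snoRNPs, which convert uridines of rRNA to pseudouridine, had no shared pattern. NHP2 (YDL208W), an RNA-binding core protein, read 0 and 3.24 in the wild type and 34.0 and 14.5 in the mutant, at least 1.41-fold higher (log2 difference 3.45, SE 0.95, limma adjusted p = 0.359). CBF5 (YLR175W), the pseudouridine synthase, read 0 and 9.82 against 15.5 and 6.48, so the strains overlapped. GAR1 (YHR089C), named after its values were seen, read 3.56 and 0.845 against 3.30 and 0.523 and was above background on no array. The difference of GAR1, -0.18 with an SE of 0.81, lay within its replicate spread.

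Of 12 measured factors of the small-subunit processome and of later small-subunit assembly, 9 averaged higher in the mutant, beside 50.6% of all genes. The fold rule was met by 4 (33.3%) as higher and by 0 as lower, beside 13.5% and 12.8% of all genes. 3 of these 4 members belong to UtpA, the subcomplex that binds the start of the pre-rRNA first. UTP4 (YDR324C), a member of that subcomplex, read 7.23 and 2.43 in the wild type and 30.2 and 29.5 in the mutant. UTP4 was thus at least 1.87-fold higher, and its mutant replicates nearly coincided (log2 difference 2.52, SE 0.59, limma adjusted p = 0.327). UTP8 (YGR128C), which has a further role in tRNA export, read 0 and 13.7 against 23.9 and 15.2, at least 1.22-fold higher. Its wild-type replicates were far apart, and wild-type replicate 2 came close to the lower mutant array (log2 difference 2.35, SE 1.49, limma adjusted p = 0.661). The difference of UTP8 was 0.44 without wild-type replicate 1 and 4.25 without replicate 2. UTP10 (YJL109C), a large scaffold protein, read 0 and 2.66 against 7.17 and 11.98 (log2 difference 2.38, SE 0.81, limma adjusted p = 0.425). UTP15 (YMR093W), the other member of this subcomplex listed and named after its values were seen, read 4.86 and 3.67 against 2.18 and 6.84, with overlap between strains. Its subunits among the further genes below, also named after their values were seen, were mixed. UTP5 read 0 and 24.5 against 10.3 and 3.38, and UTP9 4.12 and 6.48 against 5.66 and 6.13, both with overlap. NAN1 met the fold rule upward, from 0.616 and 0 to 6.21 and 2.58.

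NSR1 (YGR159C), yeast nucleolin, was the brightest small-subunit factor and differed little between the strains. It read 68.0 and 44.3 in the wild type and 47.1 and 53.7 in the mutant, between percentiles 88.3 and 92.4 on all 4 arrays. Its log2 difference of -0.13 had an SE of 0.43 and turned to 0.26 with the values as deposited and to 0.18 without wild-type replicate 1. IMP3 (YHR148W), which helps the U3 snoRNA pair with the pre-rRNA, read 0 and 8.79 against 6.30 and 12.7. IMP4 (YNL075W), its partner and named after its values were seen, read 8.92 and 4.31 against 6.18 and 0, so neither of the pair separated the strains. The remaining one to meet the fold rule upward, the helicase gene DBP8, did so from 0 and 1.22 to 4.80 and 2.29, with no array above background. RRP5, NOP14, UTP13 and RRP12 read between 0 and 9.76 throughout, and 3 of these 4 were above background on mutant replicate 1 alone.

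**Figure D4:**
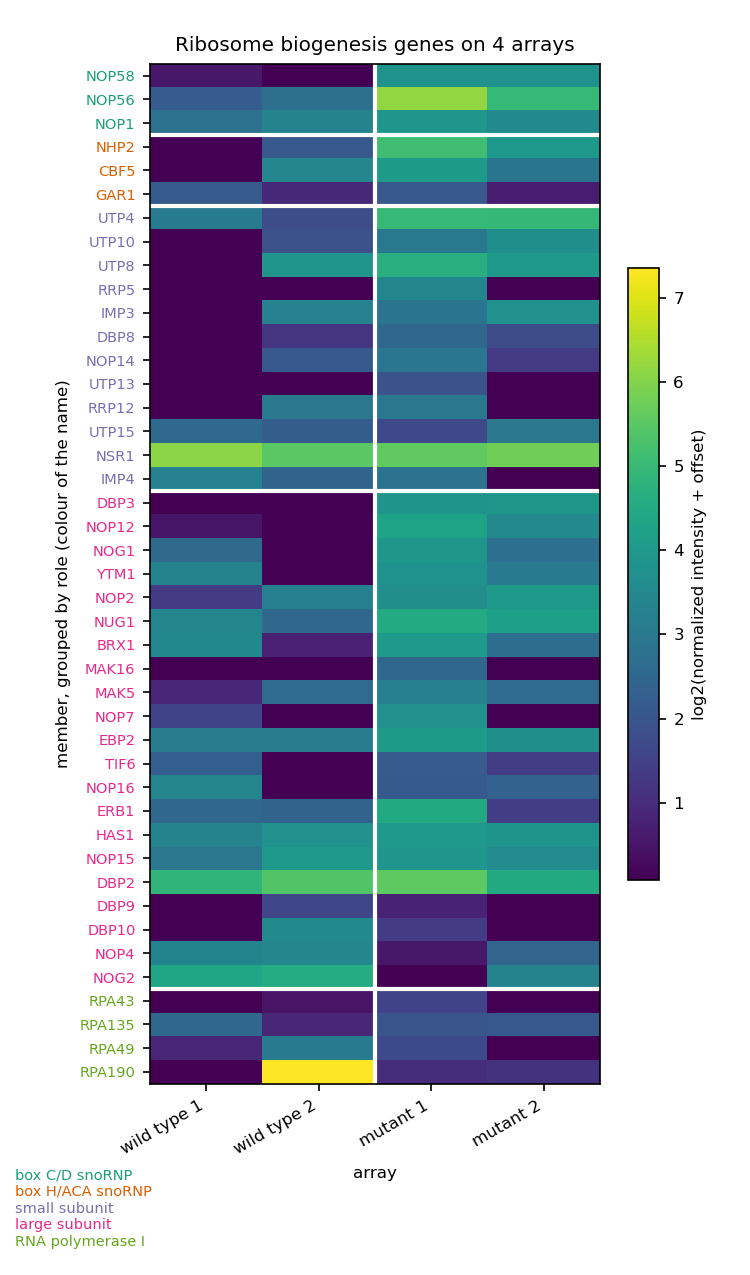
Level of the 43 ribosome biogenesis genes on each of the 4 arrays, as log2 of the normalized intensity plus the offset (colour scale), grouped by role and ordered within a role by the difference between strains. NSR1 and DBP2 are bright throughout, RPA190 is bright on wild-type replicate 2 alone, and NOP56, NOP58, NHP2, UTP4 and DBP3 are darker on both wild-type arrays than on both mutant arrays.

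The large-subunit factors held both the highest and the lowest log2 difference of any member. Of 21 measured, 16 averaged higher in the mutant, beside 50.6% of all genes. The fold rule was met by 5 (23.8%) as higher and by 2 (9.52%) as lower, beside 13.5% and 12.8% of all genes. DBP3 (YGL078C), a DEAD-box helicase for early pre-rRNA cleavage, read 0 and 0 in the wild type against 13.2 and 14.1 in the mutant. Its percentile went from 9.85 and 7.13 to 63.6 and 65.3 (log2 difference 3.80, SE 0.36, limma adjusted p = 0.277). NOP12 (YOL041C), an RNA-binding protein for 25S rRNA maturation and named after its values were seen, read 0.362 and 0 against 18.6 and 10.4 (log2 difference 3.61, SE 0.49, limma adjusted p = 0.277). For both genes the mutant level was under the wild-type bound, so no fold is given. NUG1 (YER006W), a nucleolar GTPase, read 9.37 and 4.67 against 21.9 and 17.3, at least 1.24-fold higher. NOP2 (YNL061W), which methylates a cytosine of 25S rRNA, read 1.49 and 8.36 against 11.9 and 15.0. NOG1, a further GTPase gene and named after its values were seen, was the fifth to meet the rule upward, from 5.06 and 0 to 14.1 and 5.69. The log2 difference of NOP2 (1.56) was 0.61 without wild-type replicate 1 and 2.50 without replicate 2, and that of NOG1 (1.99) was 3.26 and 0.73.

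NOG2 (YNR053C), a GTPase that acts on pre-60S particles before their export, differed in the opposite direction. It read 19.6 and 23.2 in the wild type and 0 and 8.98 in the mutant, at least 2.56-fold lower, and was the 1 member above background on both wild-type arrays alone (log2 difference -2.78, SE 1.28, limma adjusted p = 0.546). Its deposited value on mutant replicate 1 was -19.3, where the noise SD of that array was 2.80. The difference of NOG2 was -1.16 without that array and -4.40 without mutant replicate 2. NOP4 (YPL043W), an RNA-binding protein of early 60S assembly, also met the fold rule downward, with 9.17 and 9.88 against 0.419 and 4.42. NOP4 lay above background on none of the 4 arrays, so this difference is between readings within the noise (log2 difference -1.89, SE 0.80, limma adjusted p = 0.507). It was -0.95 without mutant replicate 1.

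The other large-subunit factors did not meet the fold rule. Fitted differences over 2-fold among them, such as 1.73 for YTM1 and -1.09 for DBP10 (log2), came with overlap between the strains. HAS1 (YMR290C), a helicase used in both subunit pathways, read 8.99 and 12.7 against 14.5 and 13.5, a log2 difference of 0.36 with an SE of 0.40. EBP2 (YKL172W), an early 60S factor, read 7.71 and 7.92 against 15.5 and 11.9, without overlap but by less than 2-fold (0.72, SE 0.39). DBP2 (YNL112W), a helicase with roles in mRNA as well as rRNA metabolism and named after its values were seen, was above background on every array, at 27.7 and 41.1 against 45.9 and 21.5. The strains overlapped for DBP2, whose difference of -0.10 had an SE of 0.58. The 3 proteins of the complex around NOP7, which joins ERB1 and YTM1 in processing the 27S precursor, lay above background on mutant replicate 1 alone, and they were named after their values were seen. They read 12.6, 21.4 and 13.2 there for NOP7, ERB1 and YTM1, and between 0 and 9.10 on the other arrays. The remaining large-subunit factors NOP15, NOP16, BRX1, MAK5, MAK16, DBP9, DBP10 and TIF6 read between 0 and 15.2 and overlapped between strains.

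RNA polymerase I makes the pre-rRNA itself, and its 4 listed subunit genes were hardly readable in either strain. None of the 4 was above background on a mutant array, and 0 met the fold rule. A further 18 subunits and factors of this polymerase are described below. Of those, 1 and 1 were above background in the wild type, and 8 and 5 in the mutant. The shares of all genes were 40.7%, 24.95%, 61.3% and 41.6%. RPA190 (YOR341W), the largest subunit, read 0 and 163 in the wild type and 1.01 and 1.14 in the mutant. The value of 163 was the highest of any member on any array, and it stood alone: the log2 difference of -2.63 (SE 2.76) became 1.01 without wild-type replicate 2. RPA135 (YPR010C), the second-largest subunit, read 4.60 and 0.778 against 2.97 and 3.21, and its difference of 0.36 (SE 0.71) became -0.45 without wild-type replicate 2. RPA49 and RPA43, named after their values were seen, read 0.751 and 7.66 against 2.22 and 0, and 0 and 0.322 against 1.87 and 0.

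Most members were dim, and the 2 brightest had differences near 0. The mean of 7 members lay above the mean of the 4 background limits. Of these 7, 3 met the fold rule upward and 0 downward, where 12.7% and 9.9% of such genes did. The 3 were NOP56, UTP4 and NUG1, which lay above background on the mutant arrays alone. They passed this filter through the strain where they are high, so the count is no separate support for a difference. All genes were ranked by their mean over the 4 arrays and cut into 4 equal classes, and 13, 18, 10 and 2 members fell into the lowest to the highest class. Their median log2 differences were 0.61, 1.45, 1.07 and -0.11, beside -0.17, 0.10, 0.14 and 0.06 for all genes of the same classes. The fold rule upward was met by 1, 6, 5 and 0 members in these classes, where 11.1%, 16.6%, 13.3% and 13.1% of all genes met it. With every strain that was dim throughout set at its bound, 34 of the 43 members had no usable bound, being below background in both strains or under the other strain's bound. Of the rest with a bound, 5 (11.6%) were higher, where 2.99% of all genes were, and 2 (4.65%) were lower, where 2.43% were. The 2 lower were NOG2 and RPA190, the latter on wild-type replicate 2 alone. Neither of the 2 members above background on all 4 arrays met the fold rule, which 9.64% of such genes met as higher and 11.9% as lower.

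**Figure D5:**
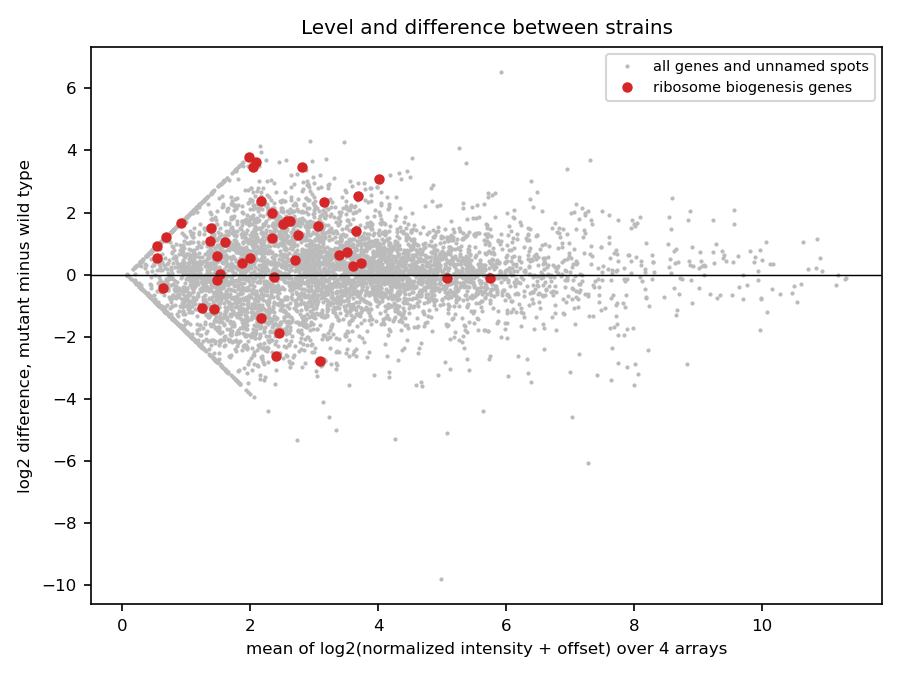
Log2 difference between strains, mutant minus wild type (y axis), against the mean log2 level over the 4 arrays (x axis) for all 6051 genes and unnamed spots (grey) and for the 43 ribosome biogenesis genes (red). The red points crowd at low and middle levels, 32 of 43 above 0, and the 2 in the highest of 4 level classes lie near 0, at a median of -0.11.

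Further genes of the pathway, without any of the 45 symbols, were read from the same fit. They were listed from general knowledge, with earlier results of these data known. Of 147 measured, 103 (70.1%) had a higher mean in the mutant, beside 50.6% of all genes. 40 of the 147 (27.2%) passed the fold rule as higher and 10 (6.80%) as lower, beside 13.5% and 12.8% of all genes. Their differences had a median of 0.58, beside 0.01 over all genes. None of the 147 was past an adjusted p of 0.05 in limma. At an unadjusted p of 0.05 there were 18 higher and 4 lower, against 5.7% and 6.03% of all genes. The count downward was 33 (22.4%) with wild-type replicate 1 omitted and 19 (12.9%) with mutant replicate 1 omitted, where 23.2% and 16.5% of all genes passed. Their median percentile was 24.0 and 35.6 in the wild type, and 44.3 and 37.0 in the mutant. On no wild-type array were 126 of the 147 (85.7%) above background, beside 56.6% of all genes.

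Small- and large-subunit factors made up 30 of the 40 higher and 4 of the 10 lower. The background of the fold rule over all genes was 13.5% upward and 12.8% downward. Of 47 small-subunit factors 15 passed the fold rule as higher and 2 as lower, among them NOB1 (YOR056C), the nuclease that makes the end of 18S rRNA, at 0.787 and 0.612 against 12.1 and 14.9. SLX9 (YGR081C), which takes part in making 18S rRNA, read 3.56 and 1.53 against 10.5 and 15.7. Of 46 large-subunit factors 15 met it upward and 2 downward, with NOP8 (YOL144W), an early 60S factor, at 0 and 0 against 14.2 and 11.9. SPB4 (YFL002C), a helicase of the 60S pathway, read 0 and 3.998 against 8.62 and 12.8. In each of these 4 genes both mutant arrays and no wild-type array lay above background, and none had a bound over 1. The 4 that passed as lower, named after their values were seen, were SOF1, UTP22, NSA2 and RRS1. NSA2 read 8.82 and 21.7 against 1.71 and 1.04 (log2 difference -2.64, SE 0.60, limma adjusted p = 0.322). It lay above background on wild-type replicate 2 alone.

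Smaller lists differed in makeup, and 13.5% of all genes met the fold rule upward and 12.8% downward. Of 9 further snoRNP proteins and assembly factors 2 met the rule upward and 2 downward. SNU13 (YEL026W), which binds box C/D and U3 RNAs and also a spliceosomal RNA, was above background on all 4 arrays, at 31.5 and 24.7 against 64.4 and 75.7, with no overlap (log2 difference 1.29, SE 0.39, limma adjusted p = 0.381). Of 18 further RNA polymerase I subunits and factors, some shared with other polymerases, 4 met the rule upward and 1 downward. RPA34 (YJL148W), a subunit specific to this polymerase, read 0.616 and 0 against 16.8 and 15.3, at least 1.03-fold higher. RRN7 (YJL025W), of the core factor that binds the rDNA promoter, read 3.998 and 2.28 against 17.0 and 20.4, at least 1.19-fold higher. Of 18 exosome and pre-rRNA nuclease genes 4 met the rule upward and 2 downward, with the exosome subunit genes RRP45 at least 1.15-fold and MTR3 at least 1.41-fold higher. Of 9 regulators of ribosomal genes 0 met it upward and 1, FHL1, downward, named after its values were seen.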

How the data were processed

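The deposited values are 1 spot intensity per spot and array on a linear scale, for 4 arrays of 6084 spots. The RNA was total RNA, primed with oligo(dT) and labelled with 33P in the cDNA, per the labels. The sources used here name no software, background method or scaling. The deposited intensity falls below 0 on every array, and the 4 array means lie between 32.4 and 32.6. The annotation gave 1 gene symbol for 5523 spots, several for 0 and none for 561.

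The quartiles of the arrays differed by more than 5%, so limma 3.58.1 in R 4.3.3 quantile-normalized them. Negative values became 0, and log2 was taken after adding 1.06, the 5th percentile of the positive values, and spots of 1 gene were averaged. The noise SD is the median size of an array's negative values divided by the normal quartile. limma (lmFit, eBayes, two-sided, 2 residual and 1.54 prior degrees of freedom) was fitted to all 6051 genes on 4 arrays without a block. The code was checked on simulated data. The number of arrays limits the precision.

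The members, lists and alternatives were chosen with earlier results of these data known. Genes given with all array values were, per role, up to 6 members with the largest difference among those above background on both arrays of a strain. They were filled up to 2 by brightness, and each member past the fold rule downward was added. Per further list they were up to 2 in each direction, past the fold rule and above background on both arrays of a strain. Only 0.397% of all genes lay above background on both wild-type arrays alone, against 6.89% on both mutant arrays alone. Genes lower in the mutant could thus qualify less often. Same-numbered arrays did not deviate together (Pearson's r 0.02 across genes), so the replicate number was not used as a pairing. This cannot show whether such arrays were handled as pairs. Promoter motifs were not analysed here.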

Additional observations from a re-analysis of the deposited data

How the results depend on the processing

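No member was past an adjusted p of 0.05 in limma under any of 14 alternatives, and the 147 further pathway genes gave 0 as well. Over all genes limma called 12 with bright genes alone, 1 with an intensity trend in the variance prior and 38 with dim strains at their bounds, an alternative that fixes dim values near the limits. The fold rule counts, higher and lower in the mutant, were 818 and 772 over all genes, 12 and 2 over the members and 40 and 10 over the further genes. They became 1700 and 338, 19 and 1, and 69 and 3 as deposited. An offset of 10 gave 249 and 205, 6 and 1, and 6 and 2, and bright genes alone gave 283 and 220, 3 and 0 (of 7 members, 5 with a higher mean), and 6 and 0. Bounds gave 258 and 284, 1 and 1 (with 5 members higher), and 1 and 2. Leaving out values at or below 0 took the lower counts to 6 of 39 members and 17 of 127 further genes, where 17.2% of all genes passed. Leaving out 1 array gave 1054 to 1288 and 996 to 1405 over all genes, 13 to 24 and 2 to 6 members, and 10 to 33 further genes lower.

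The members' median of 0.93 was 0.34 with an offset of 10, 0.38 without values at or below 0, 0.36 over bright members, 0 at the bounds (where 34 of 43 members are set at 0) and 0.40 to 1.46 without 1 array. It was 0.80 with cyclic loess and 1.04 with median scaling. The further genes' median of 0.58 was 1.29 as deposited and 0 at the bounds (119 of 147 set at 0). In this balanced design a replicate block cannot change the fitted differences or the fold rule counts (12 and 2 members, median 0.93), and limma with it gave 0 calls. With 1 common background limit, chosen after seeing the data, 2 members instead of 13 were above it on both mutant arrays alone. Over all 43 members and 12 alternatives, 40 of 512 differences turned sign or became 0, in 21 members. None of the 14 members past the fold rule was among them. That rule asks for no overlap, so leaving out 1 array could not turn the sign of those 14. The replicate block, the intensity trend and the choice among a gene's spots cannot change any member's difference. The 512 thus include values that could not turn. Among the 18 named members, mostly taken for large differences, the turned values were NSR1 at 0.26 as deposited and 0.18 without wild-type replicate 1, and RPA190 at 1.01 and RPA135 at -0.45 without wild-type replicate 2. Over the alternatives that leave out 1 array, NSR1 ranged from -0.43 to 0.18, RPA190 from -6.27 to 1.01 and RPA135 from -0.45 to 1.17. Except where the alternative's construction shows it, the cause was not tested.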

Other observations

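Some ribosome biogenesis genes are chromosomal neighbours. Among the 43 members and 147 further genes, 12 pairs are adjacent protein-coding genes in the reference annotation, and 8 of these hold a member. RPA43 and RPA190, which are transcribed away from each other, differed by 0.54 and -2.63 (log2, mutant minus wild type), the latter resting on wild-type replicate 2. NOG2 differed by -2.78 and its neighbour ESF2, a small-subunit processome gene, by 1.83. MTR3, an exosome gene, differed by 1.12 and its neighbour NSR1 by -0.13. DBP8 and NMD3, the latter an export adaptor of the large subunit, differed by 1.51 and 1.29, and RSA3 and UTP13 by 2.79 and 0.93. The other 3 pairs, RPF1 and GAR1, UTP13 and IFH1, and RPC19 and DBP2, differed by 2.15 and -0.18, 0.93 and -0.06, and -0.82 and -0.10. These pairs were looked at after the data were seen, and no test was made.

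The proteins of the finished ribosome, given for comparison, were bright where the assembly factors were dim. The median cytosolic ribosomal protein gene stood at percentile 73.0 and 68.5 on the wild-type arrays and at 85.9 and 85.9 on the mutant arrays. Of 132 such genes 74 (56.1%) passed the fold rule as higher and 4 (3.03%) as lower, beside 13.5% and 12.8% of all genes. Above background on all 4 arrays lay 56 of the 132, against 2 of 43 assembly genes and 20.4% of all genes. Whether the lists differ in their response was not tested.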
